A study of Mus musculus with 24 samples.

Results

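The mouse genes for EphB receptors (Ephb1, Ephb2, Ephb3, Ephb4 and Ephb6) and ephrin-B ligands (Efnb1, Efnb2 and Efnb3) were followed through 8 conditions of mouse embryonic fibroblasts (MEFs) that progressively lack the enzymes methylating lysine residue K9 of histone H3 (H3K9). The family was chosen on the loss of Ephb2 in 6KO1 cells, and its 8 members were taken by gene symbol from 47937 genes in the count table. All 8 were found, and 7 passed the filter on low counts. All values of the contrast of 6KO1 with WT are therefore given as a description, with no test.

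EphB receptors are receptor tyrosine kinases, and ephrin-B ligands are transmembrane proteins on neighbouring cells. Binding at cell contacts signals in both directions: the receptor phosphorylates itself and recruits adaptors and exchange factors, while the ephrin-B tail is phosphorylated or binds PDZ proteins. The system is known for cell repulsion, boundary formation and cell sorting, for axon guidance, and for the separation of arteries, which express ephrin-B2, from veins, which express EphB4. EphB6 lacks kinase activity.

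Every cell line carried the conditional Eset1 (Setdb1) allele of a fibroblast clone that expresses a tamoxifen-inducible Cre recombinase. WT cells kept Eset1, and E1 cells were the same line after Eset1 deletion with 4-hydroxytamoxifen (4-OHT). E2 cells were a clone mutated in Eset2 (Setdb2) that kept Eset1, and E1E2 was that clone after 4-OHT. In the first series, E1 S1S2 also lacked Suv39h1 and Suv39h2, and 6KO1 further lacked Eset2, G9a (Ehmt2) and Glp (Ehmt1). In the second series, E1E2 G9Gl lacked Eset1, Eset2, G9a and Glp, and 6KO2 lacked Suv39h1 and Suv39h2 as well. All conditions but WT and E2 had received 4-OHT according to the sample titles, although the treatment field names 4-OHT for every sample. Beyond E1, each mutant condition came from 1 clone. The absence of all 6 enzymes was represented by 2 clones, 6KO1 and 6KO2, and within each series genotype and clone cannot be told apart. RNA was sequenced from 3 libraries of each condition, 24 in all. The labels number these libraries without naming separate cultures, so p-values measure the spread between these samples.

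Gene counts per library lay between 19541909 and 31489070 (median 25222362). The members together took 0.00914% to 0.0201% of them. Of 23 pairs of a mutant condition and a gene mutated in it, 21 had all libraries below all WT libraries in the counts over the whole gene. The other 2 were Suv39h2 in E1 S1S2 and in 6KO1, and such counts do not check an edit of a few bases. Fibroblast markers were abundant in every library, with a summed level of 3681 to 9191 CPM (counts scaled to library size) for 8 genes. Among them, Thy1 lay at 7.41 to 8.25 CPM in WT and 15.4 to 16.8 in E1E2 G9Gl. It was at most at 0.163 CPM in 6KO2, 0.0711 CPM in E1 S1S2 and 0.0347 CPM in 6KO1. Pdgfra lay at 4.62 to 5.95 CPM in WT, 0.457 to 0.614 in E1E2 G9Gl and 0.0688 to 0.232 in 6KO1. The sum of the 8 was 6610 to 8411 CPM in WT, 8459 to 9191 in E1E2 G9Gl and 3681 to 4172 in 6KO1. WT replicate 2 had the lowest WT level of all 7 tested members. E2 replicate 2 stood apart from the other E2 libraries in Ephb3.

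The promoters of Ephb2, Ephb3 and Efnb2, the genes with the largest called changes besides the sparsely counted Ephb6, are shown because H3K9 methylation acts on chromatin and CG dinucleotides are where mammalian DNA is methylated. The sequences are the RefSeq bases (GRCm38.p6) upstream of the annotated gene start, written 5′ to 3′ on the strand of the gene, with CG in capitals. That of Ephb2 covers chr4:136836013-136836262 (minus strand), that of Ephb3 chr16:21204545-21204754 (plus strand) and that of Efnb2 chr8:8661243-8661492 (minus strand).
Ephb2: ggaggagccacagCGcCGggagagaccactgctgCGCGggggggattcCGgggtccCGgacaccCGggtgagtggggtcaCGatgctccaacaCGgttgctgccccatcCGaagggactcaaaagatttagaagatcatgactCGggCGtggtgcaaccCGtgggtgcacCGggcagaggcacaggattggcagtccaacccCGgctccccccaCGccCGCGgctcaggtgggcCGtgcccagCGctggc
Ephb3: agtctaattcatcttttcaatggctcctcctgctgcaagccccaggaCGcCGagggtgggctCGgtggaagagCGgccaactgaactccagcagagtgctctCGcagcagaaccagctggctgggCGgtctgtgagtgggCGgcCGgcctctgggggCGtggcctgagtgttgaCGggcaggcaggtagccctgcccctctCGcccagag
Efnb2: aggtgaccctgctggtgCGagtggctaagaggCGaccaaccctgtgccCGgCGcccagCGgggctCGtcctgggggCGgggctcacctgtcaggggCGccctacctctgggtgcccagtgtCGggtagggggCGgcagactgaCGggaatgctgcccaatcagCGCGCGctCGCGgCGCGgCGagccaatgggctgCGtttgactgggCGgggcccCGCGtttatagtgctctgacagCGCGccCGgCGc
A window from 250 bases before to 50 after the RefSeq start held 24 CG in Ephb2, 23 in Ephb3 and 35 in Efnb2. Of 32851 such windows, 19.98% held at least as many CG as Ephb2, 21.5% as many as Ephb3 and 6.95% as many as Efnb2, and the median window held 7. The windows of Ephb1, Ephb4 and Efnb1 held 14 CG each, and that of Ephb6 held 34. All 7 members with a window therefore lay above the median of all promoters, whatever their level in these cells. For Efnb3 no promoter is shown.

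Ephb2 (ENSMUSG00000028664, GRCm38 chr4:136647539-136835988, 16 exon blocks) encodes the receptor by which the family was chosen. In WT its 3 libraries held 793, 748 and 879 counts, or 33.4, 27.0 and 34.9 CPM. In 6KO1 they held 0, 1 and 1 counts, at most 0.0386 CPM. The 2 counts in 6KO1 against 2420 in WT correspond to 0.0757% of the WT level, with a 95% interval of 0.00916% to 0.274% that covers counting error only.

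**Figure D1:**
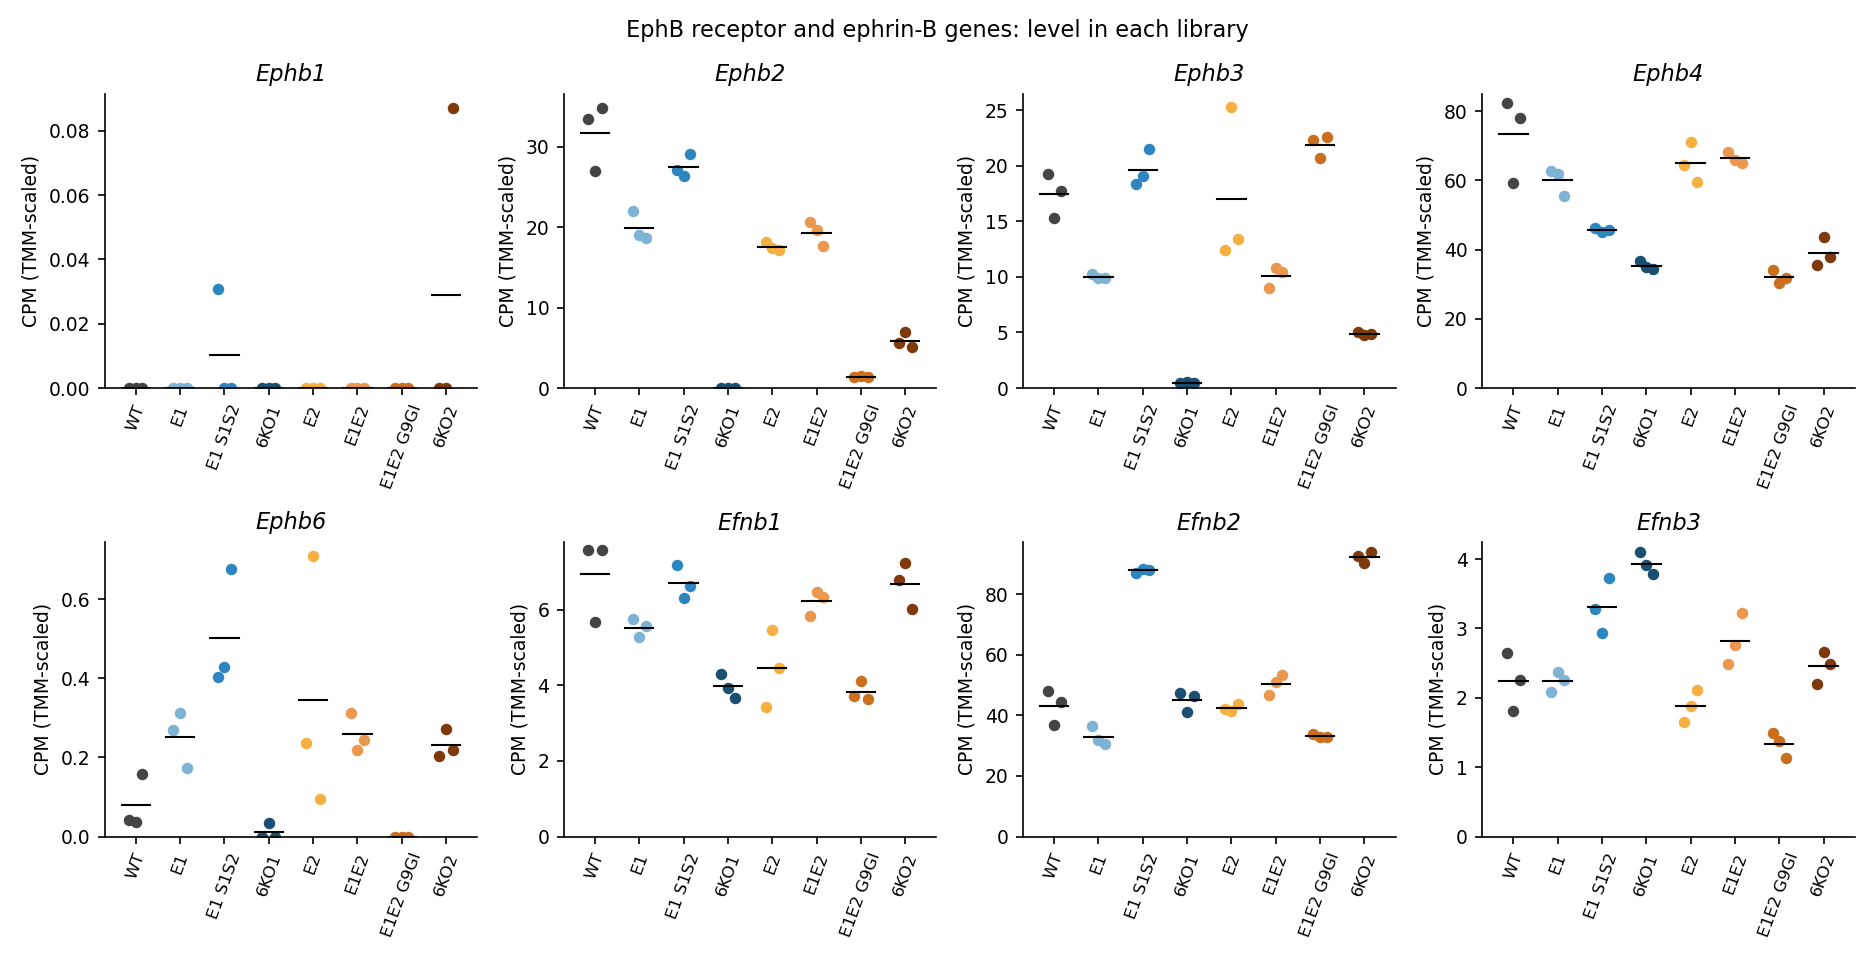
Level of each member in every library, in CPM scaled by TMM, with a separate linear axis from 0 for each gene. Points are the 3 libraries of a condition and lines their mean. Ephb2 is near 0 in 6KO1 and low in E1E2 G9Gl and 6KO2, Efnb2 is highest in E1 S1S2 and 6KO2, and Ephb1 has 3 counts in all.

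The loss of Ephb2 in 6KO1 was not shared by its direct parent. E1 S1S2 held 27.0, 26.3 and 29.1 CPM and overlapped WT, and E1 held 22.0, 19.0 and 18.6 CPM. In the second series E2 held 18.2, 17.4 and 17.1 CPM, E1E2 20.7, 19.6 and 17.6 CPM, E1E2 G9Gl 1.36, 1.55 and 1.33 CPM, and 6KO2 5.56, 6.91 and 5.15 CPM. All 9 libraries that lack G9a and Glp thus lay below all 15 others. The 6KO1 libraries among them were low by the choice of the family. Those of E1E2 G9Gl and 6KO2 come from a clone and a clone derived from it. How many of all genes separate the libraries in this way was not counted. In the order of the means, WT came first, followed by E1 S1S2, E1, E1E2 and E2, then 6KO2, E1E2 G9Gl and 6KO1. WT overlapped E1 S1S2, E1 overlapped E1E2, and E1E2 overlapped E2, while the groups from E2 downwards did not overlap their neighbours.

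The steps of the second series use none of the libraries on which Ephb2 was chosen. A call required at least a 2-fold change and an adjusted p of at most 0.01 in edgeR's quasi-likelihood test. Between E1E2 and E1E2 G9Gl, where G9a and Glp were removed, Ephb2 fell by 3.76 on the log2 scale (SE 0.14, edgeR adjusted p = 2.38e-16), a 13.6-fold lower level. Between E1E2 G9Gl and 6KO2, where Suv39h1 and Suv39h2 were removed, it rose 4.13-fold (log2 fold change 2.04, SE 0.16, edgeR adjusted p = 2.42e-10). The groups did not overlap in either step, and 6KO2 remained below E1E2. Removal of Eset1 in the Eset2 mutant (E1E2 against E2) gave a log2 difference of 0.14 with a 95% interval of -0.08 to 0.35.

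In comparisons with WT, which share the WT libraries with the choice, Ephb2 was lower in E1E2 G9Gl by 22.3-fold (log2 fold change -4.48, SE 0.14) and in 6KO2 by 5.41-fold (-2.43, SE 0.11), both called. In E1 (-0.67), E2 (-0.85) and E1E2 (-0.72) it was below 2-fold but had an edgeR adjusted p of 2.16e-05, 5.97e-07 and 4.00e-06. In E1 S1S2 the log2 fold change was -0.21 (SE 0.10, edgeR adjusted p = 0.0828).

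**Figure D2:**
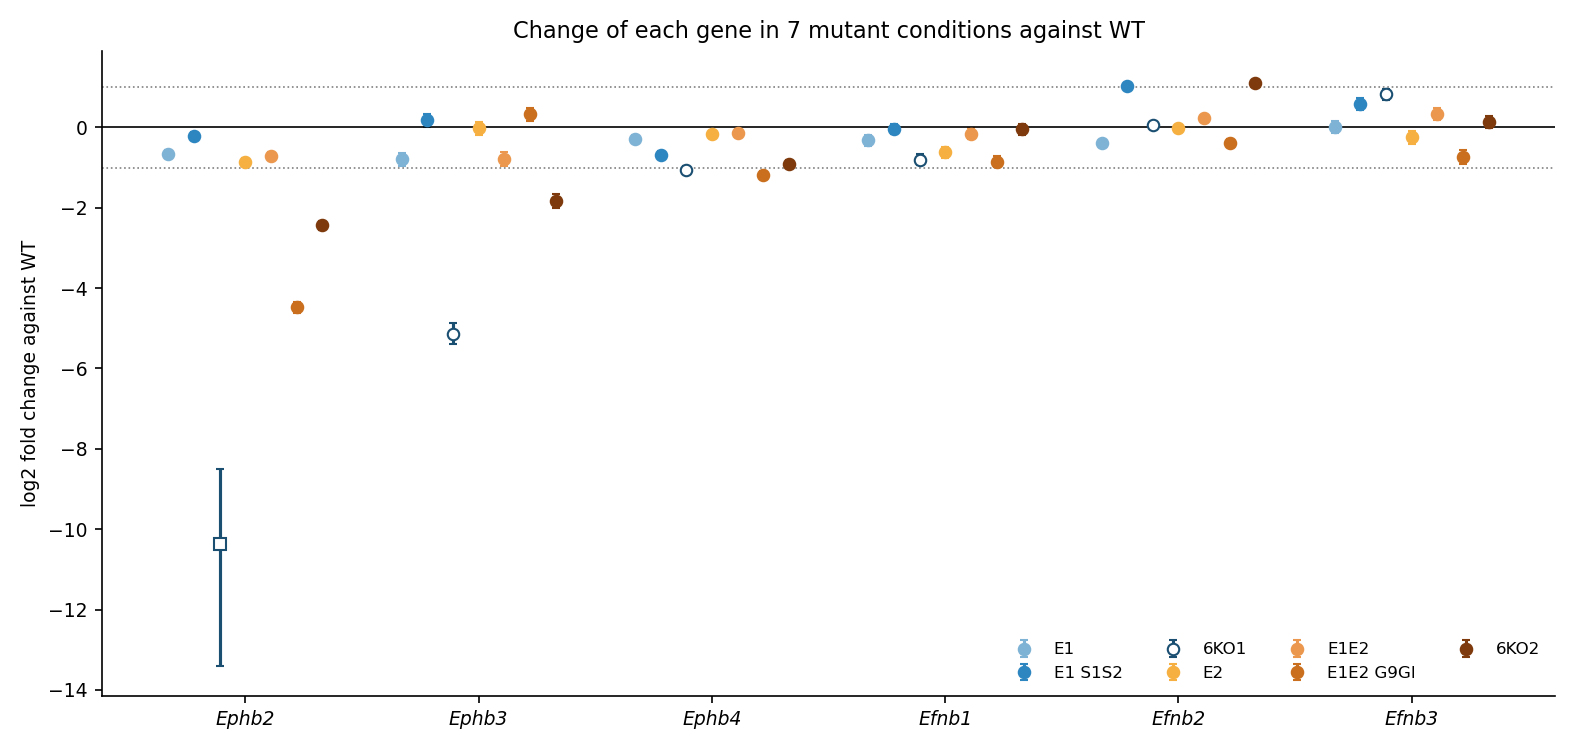
Log2 fold change of 6 members against WT in 7 mutant conditions, with 1 SE. Filled points are tested changes and open points are 6KO1, given without a test. The open square of Ephb2 is the ratio of counts with its 95% counting interval. Dotted lines mark 2-fold. The changes of Ephb2 reach furthest down, and only Efnb2 passes 2-fold upwards, in E1 S1S2 and 6KO2. Ephb1 and Ephb6 are not drawn because of their low counts.

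Ephb3 (ENSMUSG00000005958, chr16:21204755-21223305), another receptor with an active kinase, was also nearly absent in 6KO1, but it moved against Ephb2 in the second series. WT libraries held 19.3, 15.3 and 17.8 CPM and 6KO1 libraries 0.486, 0.516 and 0.464 CPM, a log2 difference of -5.14 (SE 0.26) that is a description only. E1 held 10.3, 9.94 and 9.87 CPM, and E1 S1S2 held 18.4, 19.1 and 21.5 CPM. In the second series E2 held 12.4, 25.3 and 13.4 CPM, E1E2 8.99, 10.8 and 10.4 CPM, E1E2 G9Gl 22.3, 20.7 and 22.6 CPM, and 6KO2 5.07, 4.74 and 4.84 CPM. The highest of the 24 values came from E2 replicate 2, and the condition with the highest mean was E1E2 G9Gl, in which Ephb2 was low.

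On removal of G9a and Glp in the second series, Ephb3 rose 2.18-fold (log2 fold change 1.12, SE 0.17, edgeR adjusted p = 4.12e-06). On removal of Suv39h1 and Suv39h2 it fell by 2.16 on the log2 scale (SE 0.18, edgeR adjusted p = 9.33e-10). In both steps the groups did not overlap. In the first series the corresponding Suv39h step, E1 S1S2 against E1, gave 0.97 (SE 0.17, edgeR adjusted p = 4.81e-05), just below 2-fold, and was called at 1.02 without E1 S1S2 replicate 1. Against WT, Ephb3 was called only in 6KO2 (-1.83, SE 0.18, edgeR adjusted p = 1.11e-08), while E1 (-0.80, edgeR adjusted p = 0.00121) and E1E2 (-0.79, edgeR adjusted p = 0.000565) stayed below 2-fold.

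**Figure D3:**
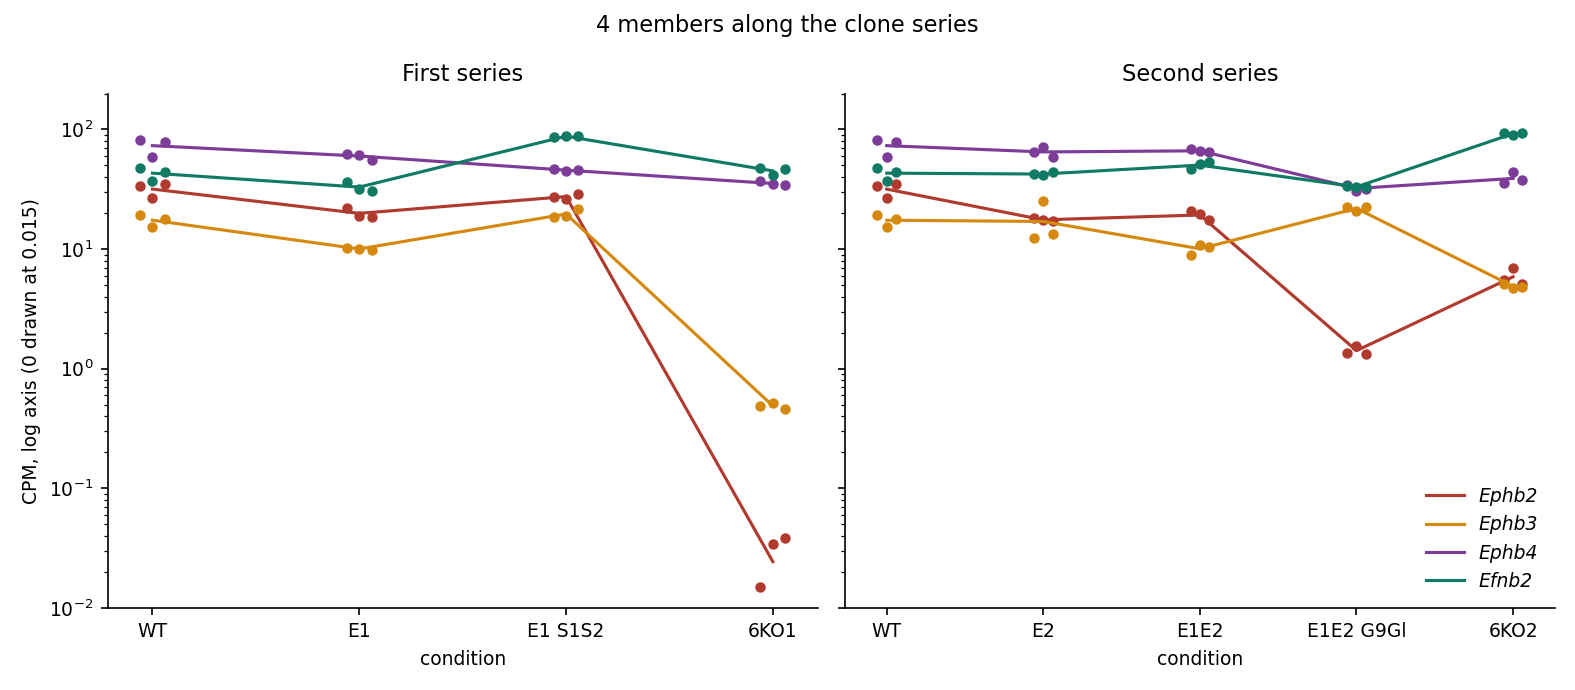
Level of Ephb2, Ephb3, Ephb4 and Efnb2 along the first series (left) and the second series (right), in CPM on a log axis. Points are libraries, lines join condition means, and the library with 0 counts of Ephb2 is drawn at 0.015. Ephb2 and Ephb3 both lie far lower in 6KO1 than in E1 S1S2, but cross each other between E1E2, E1E2 G9Gl and 6KO2.

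Ephb4 (ENSMUSG00000029710, chr5:137350109-137378669), the receptor known from veins, was the most abundant receptor per exon length in every condition, and exceeded all ligands except Efnb2 in E1 S1S2 and 6KO2. Among the receptors above the limit of detection it had the smallest ratio of highest to lowest condition mean. WT libraries held 82.5, 59.3 and 78.0 CPM, E1 62.8, 61.8 and 55.4, E1 S1S2 46.3, 45.2 and 45.7, and 6KO1 36.7, 34.9 and 34.4 CPM. E2 libraries held 64.4, 70.9 and 59.4 CPM, E1E2 68.3, 65.8 and 64.97, E1E2 G9Gl 34.1, 30.5 and 31.9, and 6KO2 35.5, 43.8 and 37.7 CPM. The 3 conditions without G9a and Glp were lowest, as for Ephb2, and none of their libraries reached the lowest library of another condition. The share of all genes with this pattern was not counted, so nothing is read from it. Here too E1E2 G9Gl and 6KO2 are related clones, and Ephb3 did not share the pattern. Ephb4 was called lower in E1E2 G9Gl against E1E2 (log2 fold change -1.05, SE 0.10, edgeR adjusted p = 2.06e-09) and against WT (-1.19, SE 0.10, edgeR adjusted p = 1.73e-10). In 6KO2 against WT it was -0.91 (SE 0.10, edgeR adjusted p = 2.00e-08), which passed the p threshold but not the 2-fold limit, and without WT replicate 2 it was called at -1.04. From E1E2 G9Gl to 6KO2 the log2 difference was 0.28 (SE 0.10, edgeR adjusted p = 0.0195). Its exons overlap those of Zan on the opposite strand by 33 bases.

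Ephb1 and Ephb6 were at the limit of detection. Ephb1 had 1 count in E1 S1S2 replicate 1, 2 counts in 6KO2 replicate 3 and none elsewhere, and was not tested. A count of 0 allows up to 3 counts in a library. Ephb6, the receptor without kinase activity, had 0 to 20 counts per library. It passed the filter only through libraries of E1 S1S2 and E2, so a change of it was implied by the filter. It had 1, 1 and 4 counts in WT, 7, 8 and 5 in E1, 13, 12 and 19 in E1 S1S2, and 0, 1 and 0 in 6KO1. In the second series it had 5, 20 and 2 counts in E2, 8, 5 and 6 in E1E2, none in the 3 libraries of E1E2 G9Gl, and 5, 6 and 5 in 6KO2. Against a floor of 3 counts over the 3 libraries of E1E2 G9Gl, its observed level was 5.63-fold higher in E1E2 and 4.98-fold higher in 6KO2. These folds leave out the counting error of the higher condition, and because of the filter they are a description only.

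Efnb2 (ENSMUSG00000001300, chr8:8617434-8661242), the ligand known from arteries, was the most abundant ligand per exon length and the only member besides the sparsely counted Ephb6 that was called higher than WT. WT libraries held 48.0, 36.9 and 44.5 CPM, E1 36.6, 31.9 and 30.5, E1 S1S2 87.1, 88.5 and 88.1, and 6KO1 47.4, 41.3 and 46.4 CPM. E2 libraries held 42.1, 41.4 and 43.7 CPM, E1E2 46.9, 51.0 and 53.2, E1E2 G9Gl 33.7, 32.9 and 32.7, and 6KO2 92.6, 90.3 and 94.1 CPM. E1 S1S2 and 6KO2 stood apart from all other conditions, and 6KO1, which also lacks both Suv39h genes, overlapped WT.

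Efnb2 was higher after the Suv39h step of both series, in which genotype and clone cannot be told apart. It was 2.66-fold higher in E1 S1S2 than in E1 (log2 fold change 1.41, SE 0.08, edgeR adjusted p = 1.62e-12) and 2.79-fold higher in 6KO2 than in E1E2 G9Gl (1.48, SE 0.08, edgeR adjusted p = 3.28e-13). The difference between these changes was 0.07 with a 95% interval of -0.16 to 0.29. Against WT the log2 fold changes were 1.03 in E1 S1S2 (SE 0.08, edgeR adjusted p = 1.60e-10) and 1.10 in 6KO2 (SE 0.08, edgeR adjusted p = 2.92e-11). Both lay close to the 2-fold limit, and without WT replicate 2 they were 0.93 and 0.996, so that neither was called. E1E2 G9Gl held 1.52-fold less Efnb2 than E1E2 (log2 fold change -0.61, SE 0.08, edgeR adjusted p = 6.20e-07), below the 2-fold limit.

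Efnb1 (ENSMUSG00000031217, chrX:99136130-99148991) was not called in any comparison. Its libraries ranged from 5.66 to 7.58 CPM in WT, 5.26 to 5.75 in E1, 6.30 to 7.17 in E1 S1S2, 3.67 to 4.31 in 6KO1, 3.43 to 5.46 in E2, 5.84 to 6.47 in E1E2, 3.63 to 4.11 in E1E2 G9Gl and 6.02 to 7.23 in 6KO2. The largest tested changes were -0.86 in E1E2 G9Gl against WT (SE 0.14, edgeR adjusted p = 1.05e-05) and 0.80 in 6KO2 against E1E2 G9Gl (SE 0.14, edgeR adjusted p = 4.45e-05), each below 2-fold.

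Efnb3 (ENSMUSG00000003934, chr11:69554092-69560205), a ligand known from the nervous system, was the lowest of the ligands per exon length in all conditions but 6KO1, where Efnb1 was lowest, with 22 to 118 counts per library. Its libraries ranged from 1.804 to 2.65 CPM in WT, 2.08 to 2.38 in E1, 2.93 to 3.73 in E1 S1S2, 3.79 to 4.10 in 6KO1, 1.64 to 2.11 in E2, 2.49 to 3.23 in E1E2, 1.13 to 1.49 in E1E2 G9Gl and 2.21 to 2.66 in 6KO2. It is the only member whose mean was highest in 6KO1. It was called lower in E1E2 G9Gl against E1E2 (log2 fold change -1.08, SE 0.17, edgeR adjusted p = 6.75e-06), a value of -0.97 without E1E2 replicate 3 or without E1E2 G9Gl replicate 3.

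To set genes side by side, CPM was divided by the length of all annotated exons of a gene in kilobases. This length was 12608 bases for Ephb2, 6641 for Ephb3 and 4640 for Ephb4. The length of the transcripts present was not measured, so the shares and ratios below depend on the annotation. On this scale WT cells held 15.8 ± 2.6 of Ephb4, 2.63 ± 0.31 of Ephb3 and 2.52 ± 0.33 of Ephb2 (mean ± SD, n = 3), so Ephb4 made up 75.3% ± 1.0 of the receptor total. Among ligands WT cells held 6.30 ± 0.83 of Efnb2, 2.01 ± 0.32 of Efnb1 and 0.703 ± 0.133 of Efnb3. The receptor total was 21.0 ± 3.3 in WT and 15.1 ± 0.4 in E1 S1S2. Without G9a and Glp it was lower, at 10.3 ± 0.5 for E1E2 G9Gl, 9.67 ± 0.97 for 6KO2 and 7.70 ± 0.26 for 6KO1. The ligand total was 9.01 ± 1.26 in WT, 8.96 ± 0.53 in 6KO1 and 6.35 ± 0.15 in E1E2 G9Gl, and it reached 15.8 ± 0.1 in E1 S1S2 and 16.2 ± 0.1 in 6KO2.

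The makeup of the receptor total differed between the conditions without G9a and Glp. Ephb4 made up 99.0% ± 0.1 of it in 6KO1 and 86.9% ± 0.9 in 6KO2. In E1E2 G9Gl Ephb3 made up 31.9% ± 0.9 and Ephb4 67.0% ± 0.9. The ratio of ligand to receptor totals was 0.431 ± 0.010 in WT and 0.443 ± 0.018 in E1, and the 9 libraries of E1 S1S2, 6KO1 and 6KO2 were the only ones above 1, with means of 1.04 ± 0.02, 1.16 ± 0.05 and 1.68 ± 0.17. In 6KO1 the ratio went with a low receptor total, and in E1 S1S2 with a high ligand total. These ratios are a description, since the receptor total contains Ephb2.

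**Figure D4:**
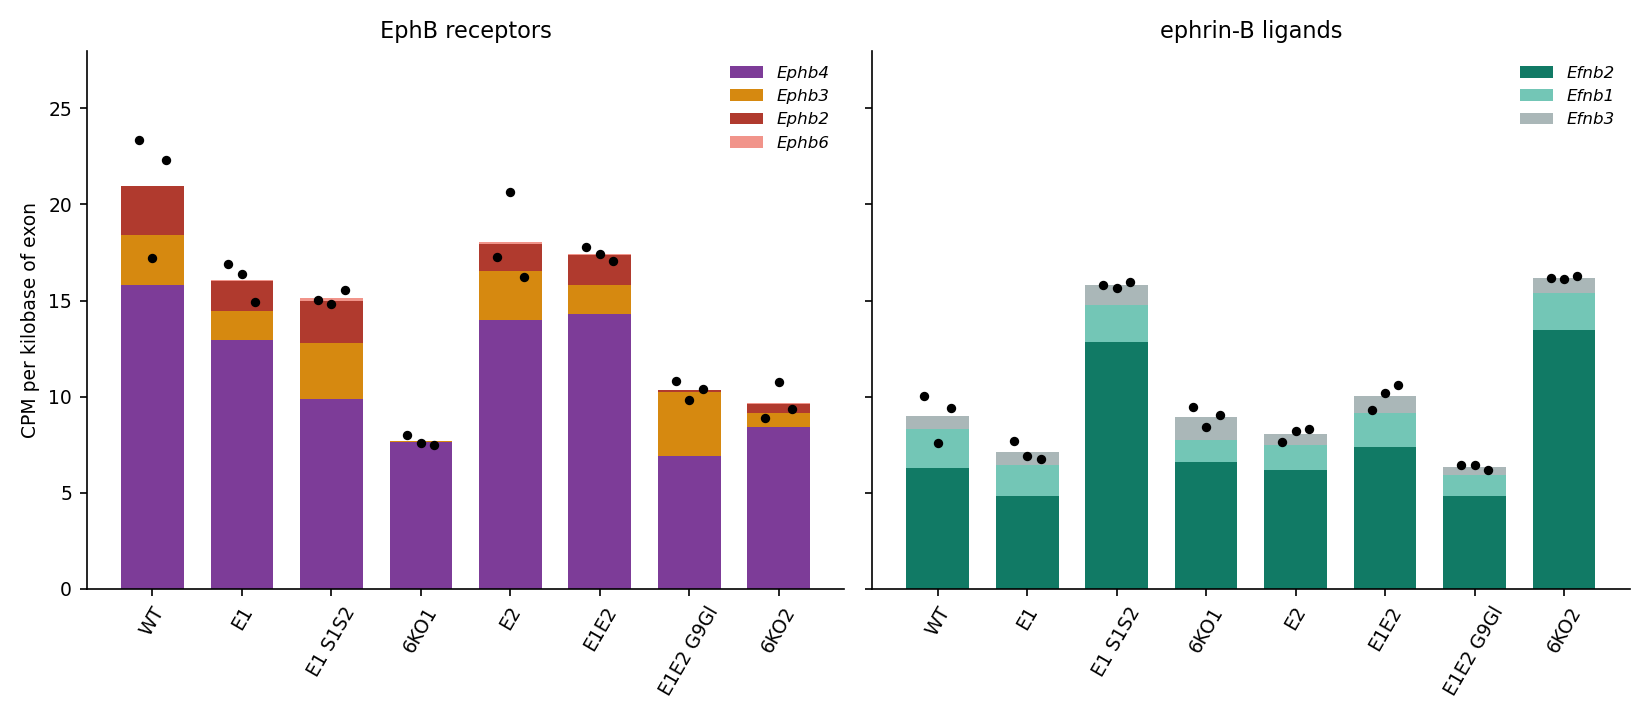
Summed level of EphB receptors (left) and ephrin-B ligands (right) in each condition, in CPM per kilobase of exon. Stacked bars are the means of the genes, from 0, and points are the totals of the 3 libraries. Ephb1 is too low to draw. The receptor total is lowest in 6KO1, where Ephb4 alone makes up 99.0%, and the ligand total is highest in E1 S1S2 and 6KO2.

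Counts of called members were read against all 18565 genes tested. Against WT, none of the 7 tested members was called in E1, E2 or E1E2, where 4.26%, 6.11% and 8.73% of all genes were called. At an unadjusted p under 0.05 and any size of change, edgeR gave 6 members in E1, 3 in E2 and 5 in E1E2. The share of all genes at this looser limit was not counted, so nothing is read from it. At the limits of a call, DESeq2 also gave 0 members in each. In E1 S1S2, Efnb2 was called higher, with 11.8% of all genes called. Ephb6 was also called there, which is not counted as a result because it passed the filter through E1 S1S2 and E2 libraries. In E1E2 G9Gl, Ephb2 and Ephb4 fell, 2 of 7, with 25.2% of all genes called. In 6KO2, Ephb2 and Ephb3 fell and Efnb2 rose, 3 of 7, with 20.7% of all genes called. These comparisons share the WT libraries.

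For the single steps, none of the 7 members was called between E1E2 and E2 (2.97% of all genes) or between E1E2 and E1 (5.79%). At an unadjusted p under 0.05 and any size, edgeR gave 4 and 2 members, again without a share of all genes. At the limits of a call, DESeq2 also gave 0 in both. Between E1E2 and E1, Efnb2 differed by 0.61 (SE 0.08, edgeR adjusted p = 2.27e-06), below 2-fold. In E1 S1S2 against E1 only Efnb2 was called, 1 of 7, with 8.06% of all genes called. In E1E2 G9Gl against E1E2, 5 of 7 were called, with 21.6% of all genes: Ephb2, Ephb4, Efnb3 and Ephb6 fell and Ephb3 rose. In 6KO2 against E1E2 G9Gl, 4 of 7 were called, with 16.3% of all genes: Ephb2, Efnb2 and Ephb6 rose and Ephb3 fell. Ephb6, called in E1E2 G9Gl against E1E2 and in 6KO2 against E1E2 G9Gl, had no count in E1E2 G9Gl. Because of the filter it is again not counted as a result. With so few members the counts of these steps are a description of the family.

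The contrasts with 6KO1 were counted by size alone. Against WT, 4 of 7 members were at least 2-fold lower, as were 11.1% of all genes (33.4% in either direction), and nothing is read from this because the choice used it. The 4 were Ephb2, Ephb3, Ephb4 (log2 difference -1.05, SE 0.09) and Ephb6, the last with 1 count against 6. Against E1 S1S2, 3 of 7 were at least 2-fold lower (as were 1114 of the 18565 genes, with 24.1% of all genes at least 2-fold apart in either direction), namely Ephb2, Ephb3 (-5.31, SE 0.25) and Ephb6, which the filter favoured, and Efnb2 lay just inside the limit at -0.96 (SE 0.08). Between the lines that lack all 6 enzymes, 4 of 7 were at least 2-fold higher in 6KO2 than in 6KO1 (8.28% of all genes, and 19.3% in either direction): Ephb2, Ephb6, Ephb3 (3.31, SE 0.30) and Efnb2 (1.04, SE 0.08). Ephb4 overlapped between these lines, with a log2 difference of 0.14 (SE 0.10).

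Differences between changes were tested directly. The Suv39h step of the second series minus that of the first was called in 2 of 7 members, with 16.5% of all genes called. For Ephb2 the difference was 1.58 (SE 0.19, edgeR adjusted p = 3.98e-07), from steps of 0.47 in the first and 2.04 in the second series. For Ephb3 it was -3.13 (SE 0.25, edgeR adjusted p = 4.39e-10), from 0.97 and -2.16. The change on 4-OHT in the Eset2 mutant clone minus that in the parent was called in none of the members, with 3.43% of all genes called. At an unadjusted p under 0.05 edgeR gave 6 members, again without a share of all genes. At the limits of a call, DESeq2 also gave 0. Below 2-fold this difference had an edgeR adjusted p of 0.000317 for Ephb2 (0.81, SE 0.14), 0.000285 for Efnb2 (0.64, SE 0.11) and 0.00555 for Efnb1 (0.79, SE 0.19).

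The low level of Ephb2 was not shared by the tested genes beside it on chromosome 4. Of 34 genes annotated in the window they span, 11 were tested, Ephb2 included, and the others were not examined. The 5 tested genes on each side were Htr1d, 6030445D17Rik, Luzp1, Kdm1a and Gm12987 at lower coordinates, and Zbtb40, Wnt4, Cdc42, 2810405F17Rik and Hspg2 at higher coordinates. In E1E2 G9Gl against E1E2 their log2 fold changes ran from -0.45 (Kdm1a, a histone demethylase gene) to 1.07 (6030445D17Rik, the only call), with a median of 0.15. In 6KO2 against E1E2 G9Gl they ran from -0.86 (Wnt4, a signalling ligand) to 0.39, with a median of 0.12 and no call. None of the 10 was at least 2-fold lower in 6KO1, E1E2 G9Gl or 6KO2 than in WT, and 4, 4 and 5 of them were at least 2-fold higher, as were 22.3%, 18.8% and 18.1% of all genes. Htr1d, among the higher genes in each, had only 11 counts in WT (0.147 CPM). The median over all 1155 tested genes of chromosome 4 was -0.02 in E1E2 G9Gl against E1E2 and 0.08 in 6KO1 against WT.

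**Figure D5:**
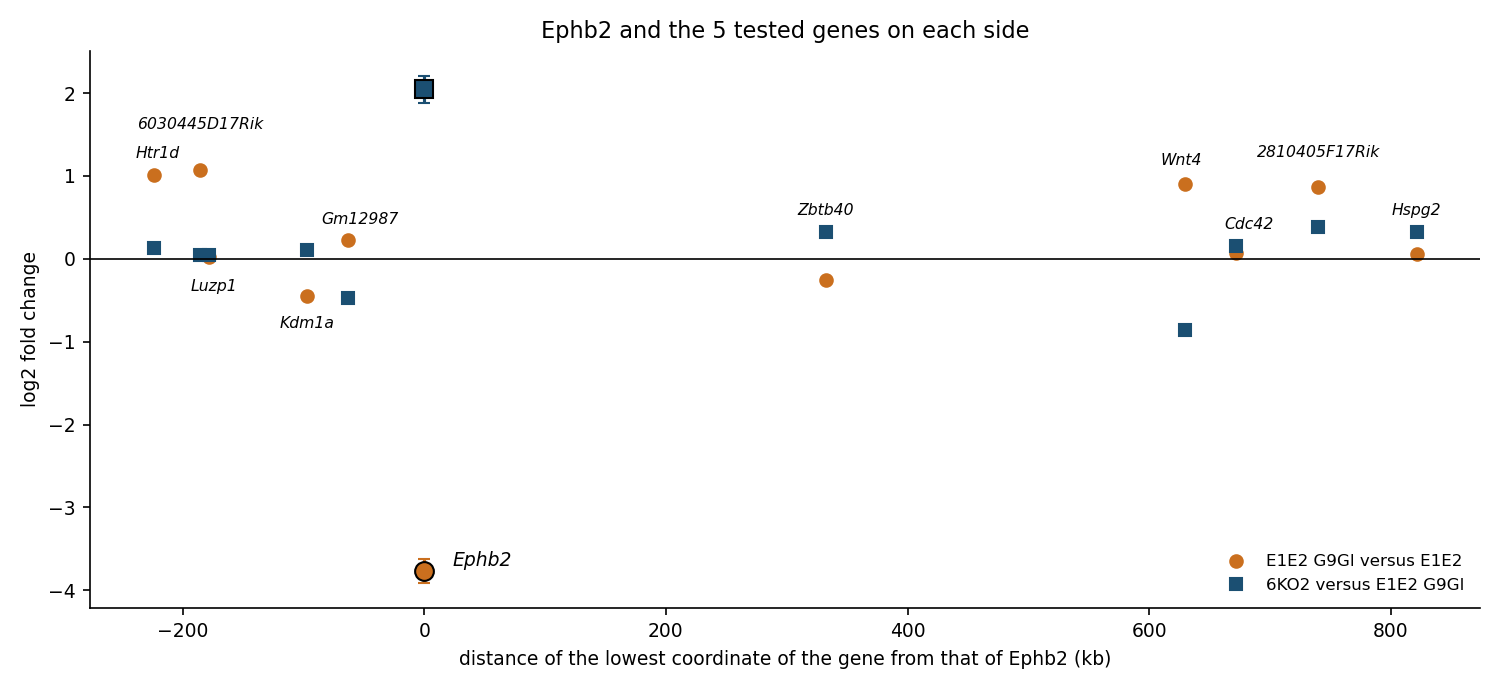
Log2 fold change of Ephb2 (large symbols at 0, with 1 SE) and of the 5 tested genes on each side, against the distance in kilobases between the lowest coordinates of the genes. Circles are E1E2 G9Gl against E1E2 and squares 6KO2 against E1E2 G9Gl. Ephb2 lies at -3.76 and 2.04, and its neighbours lie between -0.86 and 1.07.

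Across the 24 libraries, the genes whose log2 CPM was most like that of Ephb2 were Tbx18 (Pearson r = 0.979), Lrrc59 (0.978), Hs6st2 (0.976), Actg1 (0.976) and Osr1 (0.973). The points are 3 libraries of each of 8 conditions, so the coefficient is a description of the differences in log2 CPM between conditions. It does not measure their order: Lrrc59 had a mean of 465 CPM in WT and 491 in E1E2, while Ephb2 was highest in WT. Tbx18 and Osr1 are transcription factors of mesenchyme, Hs6st2 modifies heparan sulfate, and Actg1 is a cytoplasmic actin. The mean of Osr1 was 14.9 CPM in WT, 3.62 in 6KO2, 0.384 in E1E2 G9Gl and 0.0373 in 6KO1, and that of Hs6st2 was 197.9, 106.9, 56.9 and 7.75 CPM. Tbx18 kept the same order of these conditions in a narrower range, with 29.6, 17.8, 14.4 and 8.40 CPM. Within the family r with Ephb2 was 0.787 for Ephb3, 0.744 for Ephb4, 0.688 for Ephb6, 0.659 for Efnb1, 0.170 for Efnb2 and -0.207 for Efnb3. The closest of these, Ephb3, ranked 1112 of 18564 genes, and the libraries include 6KO1, on which the family was chosen.

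The EphA receptors and ephrin-A ligands, which form the other branch of the system, were partly detected. Of 9 EphA receptor genes 4 were tested, namely Epha1, Epha2, Epha4 and Epha7. Epha2, with means of 151.6 to 298.3 CPM, was called in no comparison. Epha7 was called higher than WT in E1 (log2 fold change 3.53, SE 0.25), E2 (2.09, SE 0.30), E1E2 (1.34, SE 0.34), E1E2 G9Gl (1.39, SE 0.34) and 6KO2 (4.68, SE 0.23), but not in E1 S1S2, with means of 0.210 CPM in WT and 5.48 CPM in 6KO2. All 5 ephrin-A ligand genes were tested. In E1E2 G9Gl against E1E2, 3 of 5 fell (6.78% of all genes): Efna1 (-1.21, SE 0.12), Efna3 (-1.50, SE 0.34) and Efna4 (-1.73, SE 0.18). In 6KO2 against E1E2 G9Gl, Efna1 (1.03, SE 0.13) and Efna3 (1.45, SE 0.34) rose (7.19% of all genes). The receptor genes Epha4 (1.18, SE 0.12) and Epha7 (3.29, SE 0.20) were also called higher in this step. Ephb2 and Efnb2 took the same direction in it, while Ephb3 fell.

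Of 56 other pathway genes, EphA and ephrin-A included, 50 were tested. In E1E2 G9Gl against E1E2, 3 rose and 6 fell, 18% of those tested against 21.6% of all genes, with a median of -0.12. In 6KO2 against E1E2 G9Gl, 6 rose and 2 fell, 16% against 16.3%, with a median of 0.16. In E1 S1S2 against E1, 1 rose and 3 fell, 8% against 8.06%, with a median of 0.01. The shares in these 3 steps were at or below those of all genes. Over all genes the medians of these steps were 0.01, 0.02 and -0.01. In E1 against WT, 6 of 50 were called, 12% against 4.26% of all genes. In the other tested comparisons with WT the share was below that of all genes. The 16 kinases and adaptors of receptor signalling had no call in any of the 5 steps. Against WT, Grb10, an adaptor, was called lower in E1 (-1.002, SE 0.05), E1 S1S2 (-1.09, SE 0.05) and 6KO2 (-1.90, SE 0.05).

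Among 6 guanine nucleotide exchange factors, which act downstream of the receptors, 4 were called in E1E2 G9Gl against E1E2, with 21.6% of all genes called. Kalrn (1.46, SE 0.16) and Vav3 (1.23, SE 0.12) rose, and Ngef (-4.47, SE 0.34) and Tiam1 (-1.07, SE 0.11) fell. In 6KO2 against E1E2 G9Gl, Ngef rose (3.35, SE 0.39) and Kalrn fell (-1.97, SE 0.17). Ngef, whose product ephexin binds EphA receptors, thus moved as Ephb2 did in both steps, and Kalrn as Ephb3 did. Of 8 tested partners of the receptor and ligand tails, Grip1, a PDZ protein, rose on removal of G9a and Glp (4.23, SE 0.44) and fell on removal of Suv39h1 and Suv39h2 (-1.17, SE 0.29). Ptpn13, a phosphatase with PDZ domains, was called higher than WT in all 6 tested mutants, from 1.38 (SE 0.12) in E1E2 G9Gl to 2.37 (SE 0.12) in E2. Of the 4 proteases that cleave ephrins or Eph receptors, Mmp9 fell on removal of G9a and Glp (-4.49, SE 0.34) and rose on removal of Suv39h1 and Suv39h2 in the second series (3.57, SE 0.38), but fell in the Suv39h step of the first series (-1.92, SE 0.20).

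Some markers of other cell types that use this family moved with the conditions. In bulk RNA fewer cells of a type and less RNA per cell cannot be told apart. The summed level of 6 endothelial markers was 0.469 to 0.631 CPM in WT, 4.83 to 5.66 in 6KO1, 2.66 to 3.47 in E1E2 G9Gl, 3.96 to 5.45 in 6KO2 and 0.319 to 1.48 in the other conditions. Cdh5 lay at 1.19 to 2.88 CPM in 6KO1, E1E2 G9Gl and 6KO2. Kdr lay at 0.172 to 0.386 CPM in 6KO1, against 0.216 to 0.253 in WT, 1.19 to 1.33 in E1E2 G9Gl and 1.35 to 2.40 in 6KO2. Tie1 was at most at 0.139 CPM and Emcn at 0 in the conditions other than E1 S1S2. The 5 epithelial markers summed to 7.41 to 9.23 CPM in WT and were higher in all mutants, at 17.8 to 33.5 CPM in E1 and E1 S1S2, 51.4 to 55.4 in 6KO1, 47.0 to 58.4 in E2, 57.1 to 64.0 in E1E2, 106.8 to 110.5 in E1E2 G9Gl and 89.4 to 103.1 in 6KO2. Most of it was Krt19, with Cdh1 at most at 0.350 CPM and Epcam at most at 0.555 CPM in any library. The 4 blood markers summed to 3.499 to 4.13 CPM in WT, 21.3 to 23.97 in 6KO1 24.5 to 25.8 in E1E2 G9Gl and 2.13 to 5.72 in the other conditions, made up mostly of Cd68 in 6KO1 and of Itgam in E1E2 G9Gl, and Adgre1 was at 0 in all libraries. The 4 muscle markers summed to 1.23 to 1.37 CPM in WT, 12.2 to 13.2 in 6KO1 12.0 to 12.4 in E1E2 G9Gl and 1.67 to 4.43 in the other conditions, mostly Des. The 5 neural markers, led by Nes, which fibroblasts also express, summed to 462.3 to 896.3 CPM over all libraries. Among them Map2, a neuronal microtubule protein, lay at 25.6 to 27.6 CPM in E1E2 G9Gl and 27.9 to 31.1 in 6KO2, against 0.295 to 0.649 in WT and at most 1.196 in any other library. The other neural markers did not share this pattern. Sox2 was at 0 in E1E2 G9Gl and 6KO2, and Rbfox3 was at most at 0.0409 CPM there. Tubb3 lay at 58.8 to 64.0 CPM in E1E2 G9Gl and 126.6 to 142.6 in 6KO2, against 120.3 to 130.0 in E1E2. The 3 pluripotency markers summed to 0.0773 to 0.716 CPM, with Zfp42 at 0. The part of these markers in the changes of the family was not tested.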

How the data were processed

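Total RNA of 24 MEF samples was sequenced by the authors as stranded, paired-end libraries. They trimmed reads with cutadapt 1.8.1, aligned them to GRCm38 with STAR 2.5.2b, and quantified genes and repeats with TEtranscripts. The deposited values are whole-number counts per gene, not normalized. The strand setting of the counting is not given in the sources used here. Repeat rows and 1 malformed row were left out. Groups and replicate numbers were taken from the sample labels, and 0 columns lacked a sample. Members and gene lists were chosen with earlier results of these data known.

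Genes were filtered with filterByExpr by condition, scaled by TMM and tested with edgeR 4.0.16 (R 4.3.3, quasi-likelihood test, two-sided) over all libraries, with 1 coefficient per condition and Benjamini-Hochberg adjustment over 18565 genes. A call needs a 2-fold change and an adjusted p of at most 0.01. Contrasts with 6KO1 were not tested. Folds were not printed from fits where a condition had 3 counts or fewer. Coordinates and exon lengths are from GENCODE M21. The fit was tested on simulated data. Named genes were all members, some of the pathway genes called in a tested comparison (at most the 4 largest per group), the 5 tested genes on each side of Ephb2, and the 5 genes most like Ephb2. Alternatives were DESeq2 1.42.0, RLE factors, no filter, only the compared libraries, the replicate block, and each library left out. The results of 1 list of pathway genes are not reported here. Depth limited Ephb1 and Ephb6. Figures were drawn with matplotlib 3.10.9.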

Additional observations from a re-analysis of the deposited data

Results flagged for a closer look

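The effect of removing Suv39h1 and Suv39h2 differed between the clone series for a pair of receptors, by a test of the difference itself. For Ephb2 the change in the second series exceeded that in the first by 1.58 on the log2 scale (SE 0.19, edgeR adjusted p = 3.98e-07). For Ephb3 the change in the second series was lower, by a difference of -3.13 (SE 0.25, edgeR adjusted p = 4.39e-10). The series also differ in clone and in the enzymes already absent before this step, and these cannot be told apart.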

How the results depend on the processing

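Replicate numbers did not pair the libraries: in no comparison did every pair of same-numbered libraries correlate above 0.1. The fit with the replicate block changed no count of members, with 5 in E1E2 G9Gl against E1E2 and 4 in 6KO2 against E1E2 G9Gl. Both of these counts include Ephb6. Of 1193 values of single members under an alternative, 1152 counted as unchanged. For tested contrasts this meant the same direction and side of the threshold. For contrasts with 6KO1 it meant a shift smaller than the largest SD of log2 CPM within a compared condition. Leaving out each library gave 1 to 2 called members in E1 S1S2 against WT (1 without WT replicate 2, which lost Efnb2), 0 to 1 in E2 against WT (1 without WT replicate 3 or E2 replicate 3, with Ephb6) and 1 to 2 in E1 S1S2 against E1 (2 without E1 S1S2 replicate 1, with Ephb3). Without the filter on low counts, 1 member (Ephb6) was called in E2 against WT, and 5 were at least 2-fold apart in 6KO1 against E1 S1S2. The cause was not tested.

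Values near 0 that changed sign when 1 library was left out were not called. They ranged from -0.13 to 0.15 for Efnb3 in E1, -0.175 to 0.0247 for Efnb1 in E1 S1S2, -0.43 to 0.16 for Ephb3 and -0.126 to 0.059 for Efnb2 in E2, and -0.184 to 0.0168 for Efnb1 and -0.004 to 0.27 for Efnb3 in 6KO2, all against WT. For E1E2 they ranged from -0.0301 to 0.10 for Ephb4 and -0.93 to 0.65 for Ephb6 against E2, and from -0.0967 to 0.0348 for Ephb2, -0.0492 to 0.0781 for Ephb3 and -0.16 to 0.24 for Ephb6 against E1. The difference between the 4-OHT changes of Ephb3 ranged from -0.16 to 0.44, and that between the Suv39h steps of Efnb2 from -0.0154 to 0.118. Without the filter, Ephb3 in E1E2 against E1 was -0.0114. With only the compared libraries, Efnb2 in E2 against WT was 0.00. Depth limits Ephb1 and Ephb6, whose counts reached 2 and 20 per library.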
